A study of Daphnia magna with 45 samples.

Results

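Propranolol at 4 mg/L was compared with no exposure after 6 h in whole female Daphnia magna, a freshwater crustacean. The comparison was chosen by sample title and holds 5 of the 45 libraries of the series, 2 of exposed animals and 3 of unexposed controls. Animals of the strain Xinb3 were 5 days old and were kept in vessels of 20 animals in 35 mL of solution, so each library is a pool and shows nothing of differences between animals. The remaining libraries are of other hours or of other exposures: the lower propranolol dose of 1 mg/L, 100 mg/L of isoprenaline, an agonist of the same receptors, and a mixture of both at these doses. Whether replicates were cultured apart is not stated in the labels. Unless stated, the p-values of IDs below rest on the spread among libraries within all groups of the series. Most of these groups lie outside the comparison, and part of the spread may be technical.

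Propranolol blocks beta-adrenergic receptors, the receptors through which adrenaline speeds the vertebrate heart, and it is used as a heart drug. Arthropods carry related amine receptors that respond to octopamine and tyramine. The Daphnia heart is a small muscular sac whose beat can be seen through the transparent body, and the series set gene expression beside cardiac structure and function. Libraries of whole bodies hold RNA of all tissues, so fewer cells of a type and less RNA per cell cannot be told apart, and the heart supplies only a small part of the RNA.

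Levels are CPM, the reads of an ID per 1000000 reads of a library. The files pair their 19159 IDs with no gene names, and 0 IDs matched the reference table, so the labelled tissue could not be checked against markers and IDs are given as deposited. The 5 libraries held 15.9 to 21.2 M reads, with 14 to 159 IDs lacking any read. The 10 most abundant IDs took 10.4% and 11.7% of the reads of exposed replicates 1 and 2, and 14.3%, 16.6% and 20.7% of those of control replicates 1, 2 and 3. Both exposed libraries thus lay below all controls, with a mean of 11.1% ± 0.935 (SD, n = 2) against 17.2% ± 3.25 (SD, n = 3). A two-sided exact permutation test gave p = 0.2, which is the smallest that 10 arrangements of these libraries allow.

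The exposed libraries differed more from each other than any pair of controls did. Between exposed replicates 1 and 2, 24.8% of IDs differed at least 2-fold on the log2(CPM + 1) scale, against 7.63% to 20.8% between pairs of controls. Exposed replicate 2 was close to control replicates 2 and 3, with 7.64% and 6.65% of IDs past 2-fold, and exposed replicate 1 was far from them, with 30.9% and 29.0%. The first axis of variation among the other 40 libraries carried 49.9% of their variance, and on it exposed replicate 1 scored 71.2 and exposed replicate 2 scored -82.8. Control replicates 1, 2 and 3 scored -14.6, -94.7 and -87.0. Libraries at both ends of this axis occur with and without exposure, and the labels name no batch.

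**Figure D1:**
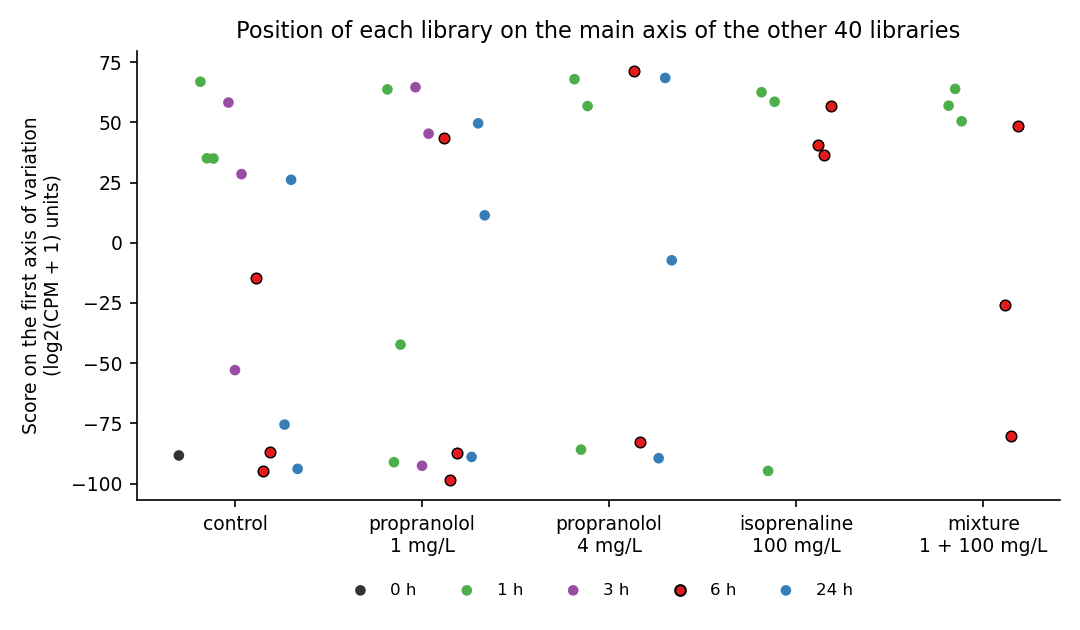
Score of each of the 45 libraries (points, coloured by hour, 6 h ringed) on the first axis of variation of the 40 libraries outside the comparison, in log2(CPM + 1) units, by exposure. At 6 h the exposed libraries sit at 71.2 and -82.8, and the controls between -94.7 and -14.6.

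Exposed animals had many IDs at lower levels than controls and few at higher levels. Of the 19159 IDs, 736 were lower and 18 higher at an adjusted p under 0.05 (limma on log2(CPM + 1), all 16 groups in the fit, Benjamini-Hochberg adjustment), or 3.84% and 0.094% of all IDs and 3.94% together. The median log2 change was -1.16 for the lower IDs and 1.06 for the higher ones, beside -0.12 over all IDs. After each library was shifted by its median log ratio the median of all IDs was 0.04, and 309 IDs were lower and 60 higher, so that 83.7% of calls were lower in place of 97.6%. edgeR's quasi-likelihood test on the recovered reads called 267 lower (1.39%) and 101 higher (0.527%), together 1.92% of IDs, and 72.6% of its calls were lower. All 18 higher calls and 266 of the 736 lower calls were called by edgeR too. With library weights limma called 30 lower and 0 higher, and fitted to the exposed and control groups alone it called 0 in either direction (1451 IDs at an unadjusted p under 0.05). The weights, lower for noisier libraries, were 0.344 for both exposed libraries and 0.408, 0.523 and 2.94 for control replicates 1, 2 and 3.

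**Figure D2:**
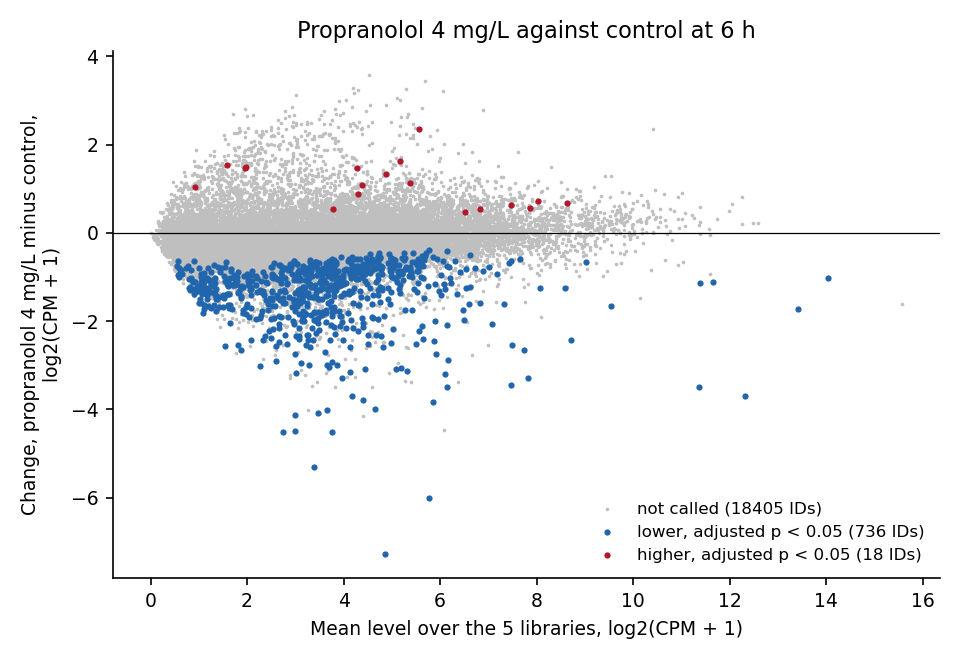
Each point is an ID, with its mean level over the 5 libraries on the x axis and the change of exposed minus control on the y axis, both on the log2(CPM + 1) scale. The 736 lower IDs (blue) reach -7.28 and the 18 higher IDs (red) reach 2.37, and IDs that were not called are grey.

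The falls ranged from -7.28 to -0.40 on the log2 scale. Of the lower IDs, 464 changed by at least 1 on the log2 scale, 103 by at least 2 and 28 by at least 3. The lower IDs had a median control level of 16.5 CPM, with quartiles of 7.60 and 33.9 CPM, and a median exposed level of 5.92 CPM. Over all IDs the medians were 12.7 and 11.5 CPM. Lower calls made up 2.70% of IDs with a mean under 5 CPM, 5.71% of those from 5 to under 20 CPM, 3.61% of those from 20 to under 100 CPM and 2.20% of those from 100 CPM. The higher IDs had a median of 22.1 CPM in controls and 58.5 CPM in exposed animals.

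The lower IDs included abundant transcripts. Together they took 8.52%, 10.2% and 10.1% of the reads of control replicates 1, 2 and 3, and 2.34% and 4.34% of those of exposed replicates 1 and 2. The groups did not overlap, as the choice of these IDs by this comparison makes likely, so the difference was not tested. The 6 most abundant of them made up 6.30% to 7.50% of the control reads, and 1.60% and 3.14% of the exposed reads. The most abundant was at 2.28%, 2.52% and 1.95% of reads in the controls and at 0.948% and 1.26% in the exposed libraries (limma log2 change -1.03, adjusted p 0.0105, edgeR adjusted p 0.0480). The third in order of level fell further, from 1.03%, 1.31% and 2.16% of reads to 0.0368% and 0.326% (limma log2 change -3.70, adjusted p 0.0192). edgeR did not call that ID (adjusted p 0.105), and among the 6 it called only the first and the second. The 18 higher IDs took 0.244% and 0.2003% of exposed reads and 0.114% to 0.135% of control reads.

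Both exposed libraries lay below all 3 controls in 734 of the 736 lower IDs and above them in 17 of the 18 higher IDs. The choice of these IDs by the same libraries makes this likely, so it is no separate support. Over all IDs the same held downward for 3602 IDs (18.8%) and upward for 1045 (5.45%). A change of at least 2-fold in all 6 pairs of an exposed and a control library was met downward by 138 IDs (0.720%), 118 of them called, and upward by 8 (0.0418%), of which limma called 0 and which were not examined further.

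The exposed libraries contributed unequally to the falls. Relative to the control mean, the median log2 change of the lower IDs was -1.47 in replicate 1 and -0.83 in replicate 2. The same medians over all IDs were -0.248 and -0.069. All 736 were below the control mean in both libraries, as their choice by this comparison makes likely. Of them 666 (90.5%) were farther below it in replicate 1. Over all IDs, replicate 1 was the farther library for 70.8%. Without replicate 1 the test called 2 lower IDs, 1 of them among the 736, and without replicate 2 it called 1881 lower and 57 higher. Without control replicate 3 it called 298 lower and 3 higher, and without control replicate 2 483 lower and 4 higher.

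**Figure D3:**
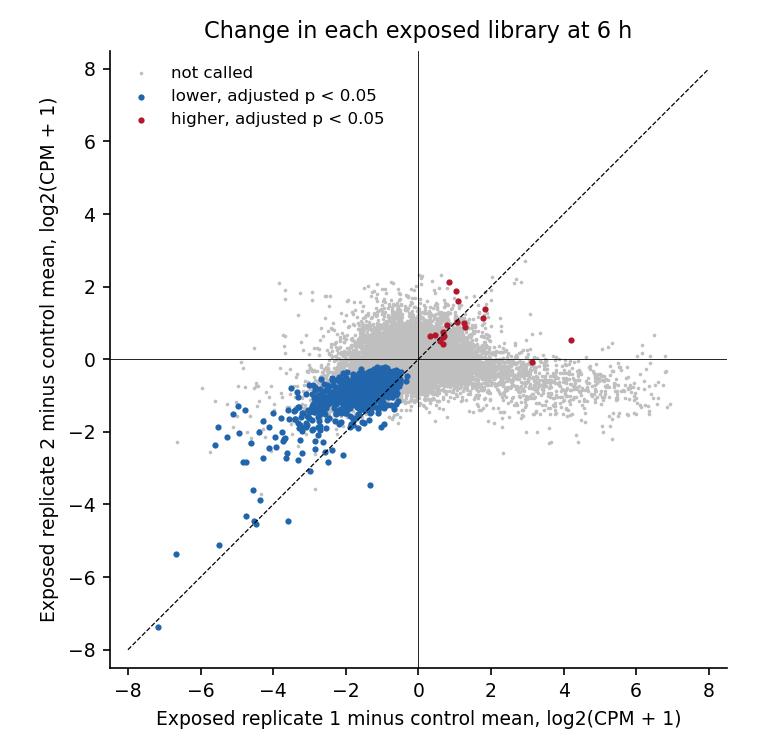
Each point is an ID, with the log2(CPM + 1) difference from the control mean in exposed replicate 1 on the x axis and in exposed replicate 2 on the y axis. The dashed line marks equal change, the lower IDs (blue) lie mostly on the side of the larger fall in replicate 1, and the grey cloud to the right holds IDs that are high in replicate 1 and not in replicate 2.

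A large group of IDs was raised in exposed replicate 1 and not in replicate 2. Replicate 1 held 435 IDs at least 8-fold above the control mean on the log2(CPM + 1) scale, and replicate 2 held 0. Of the 435, 24 were above the control mean in replicate 2 as well and 2 were called higher. Their median level was 88.2 CPM in exposed replicate 1 and 1.57 CPM in replicate 2, against 13.0, 1.00 and 1.65 CPM in control replicates 1, 2 and 3. They took 12.7% of the reads of exposed replicate 1, 0.209% of those of replicate 2, and 1.69%, 0.184% and 0.190% of those of the controls. Of these IDs 433 (99.5%) had a positive weight on the first axis of the other 40 libraries, against 38.9% of all IDs. Among the controls, replicate 1 was nearest to exposed replicate 1 on that axis and had the highest median of these IDs. Their positive weights make this likely, so it is no separate support.

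The lower calls leaned the other way on the same axis, with a negative weight for 91.0% of them and for 61.1% of all IDs. The fit was therefore repeated with each library's axis score as a covariate, an alternative chosen after seeing the data. All 736 lower and all 18 higher IDs passed again, with median log2 changes of -1.03 and 0.96, and the calls over all IDs came to 1140 lower (5.95%) and 91 higher (0.475%), together 6.43%. The median SE of a log2 change fell from 0.312 to 0.249. The axis was drawn from the libraries that supply most of the residual spread, which makes a smaller SE likely. Passing again, here or with a library left out, is therefore no independent support. With the covariate and without exposed replicate 1, 65 IDs were lower and 10 higher. Of the 736 lower IDs 59 were called in that fit, and 48 were called in each of the 5 fits with the covariate and 1 library left out. Of those 48, 44 were also called by edgeR, with a median log2 change of -1.79.

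The named IDs are the largest changes of each direction that both limma and edgeR called, at a mean of at least 5 CPM, with no overlap between groups, after 4 IDs known from earlier results of these data were set aside. Falls were far larger than rises under this rule, which 197 falling and 14 rising IDs met. A fall here means a level below the control of the same hour, not a decline over time.

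Dapma7bEVm027021t1 was nearly silent in exposed animals. It had 0 and 5 reads in exposed replicates 1 and 2 (0 and 0.314 CPM, where 3 reads stand for 0.154 and 0.188 CPM), and 288, 1835 and 1095 reads in the controls (17.0, 96.9 and 51.7 CPM). The groups lay far apart although the controls varied more than 5-fold among themselves. The limma log2 change was -5.31 (SE 0.910, adjusted p 0.00189, edgeR adjusted p 0.00801), and the share of pooled reads was 399-fold lower (171 to 1231, exact 95% interval for counting error only). Without exposed replicate 1 the log2 change was -5.11 and missed the threshold, and with the axis covariate as well it was -5.24. Both fits leave 1 exposed library, whose spread is taken from other groups. Neither can decide whether the fall holds without replicate 1.

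This ID was under 1 CPM in every library at 4 mg/L at 1, 6 and 24 h, and in those of isoprenaline and the mixture at 6 h, while the 6 h libraries at 1 mg/L overlapped the controls. Controls were at 0.600 CPM in the single 0 h library, 5.12 ± 5.82 CPM at 1 h, 10.5 ± 6.34 at 3 h, 55.2 ± 40.1 at 6 h and 22.6 ± 7.13 at 24 h (SD, n = 3 each). Animals at 4 mg/L were at 0.172 ± 0.219 CPM at 1 h and 0.0779 ± 0.0308 at 24 h (SD, n = 3 each), with a limma log2 change of -4.41 at 24 h (SE 0.814, adjusted p 0.00534). The 1 h change of -1.98 (SE 0.814) did not pass the limma test. At 1 mg/L the 6 h libraries were at 7.43, 42.0 and 76.7 CPM, which overlaps the controls. Isoprenaline libraries at 6 h were at 0 to 0.172 CPM and mixture libraries at 0 to 0.131 CPM.

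Dapma7bEVm009318t1 showed a similar order of levels but stayed detectable. It was at 0.771 and 1.38 CPM in the exposed libraries (15 and 22 reads) and at 20.1, 86.1 and 56.6 CPM in the controls. The limma log2 change was -4.53 (SE 0.701, adjusted p 0.000868, edgeR adjusted p 0.00408), and its pooled reads made up a 53.1-fold smaller share in exposed animals (38.5 to 75.6, exact 95% interval of counting error). Without exposed replicate 1 the log2 change was -4.31 and missed the threshold, and with the axis covariate as well it was -4.39. Here too 1 exposed library is left, so neither fit can decide whether the fall holds without replicate 1. At 4 mg/L it was at 1.68 ± 0.355 CPM at 1 h and 1.71 ± 0.555 at 24 h, against 10.3 ± 6.34 and 26.7 ± 6.23 CPM in the controls of those hours (SD, n = 3 each). The 24 h difference passed the limma test (log2 change -3.35, SE 0.627, adjusted p 0.00565), and the 1 h difference did not (-1.94, SE 0.627, adjusted p 1.000). At 1 mg/L and 6 h it was at 15.5, 69.1 and 70.6 CPM, which overlaps the controls. Isoprenaline libraries at 6 h were at 0.950 to 1.95 CPM and mixture libraries at 1.42 to 1.60 CPM, also below all controls.

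The next 10 falling IDs under the same rule had log2 changes of -4.51 to -3.18, with limma adjusted p of 0.00164 to 0.0104. Their controls ranged from 7.62 to 371 CPM and their exposed libraries from 0 to 27.6 CPM. At 24 h, in other libraries, 9 of these 10 were called lower too, beside 1.12% of all IDs. A single ID of the whole table had at least 5 CPM in every control and at most 3 reads in both exposed libraries, and no ID showed the reverse.

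Dapma7bEVm006485t1, the largest rise among the called IDs, was high in a single library. It was at 446 CPM in exposed replicate 1 and 34.4 CPM in replicate 2, against 16.7, 32.2 and 23.8 CPM in the controls. Replicate 2 was thus above the highest control by a small margin only. The limma log2 change was 2.37 (SE 0.568, adjusted p 0.0149, edgeR adjusted p 0.00363), but 0.54 without exposed replicate 1 (adjusted p 0.999). It was at 15.8 ± 4.82 CPM at 1 h and 18.9 ± 5.90 at 24 h under 4 mg/L, and at 19.3 ± 5.00 CPM at 1 mg/L and 6 h (SD, n = 3 each).

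Dapma7bEVm010746t1 was higher in both exposed libraries. It was at 81.8 and 59.5 CPM, against 33.2, 18.4 and 17.3 CPM in the controls, so that the lower exposed library was well above the highest control. The limma log2 change was 1.62 (SE 0.432, adjusted p 0.0278, edgeR adjusted p 0.0305). Without exposed replicate 1 the change was 1.40 and missed the threshold. The ID also missed it without control replicate 2 or 3 (limma adjusted p 0.0853 and 0.119) and with library weights (limma adjusted p 0.0582). With the axis covariate the change was 1.28 (limma adjusted p 0.00348), and 1.02 when exposed replicate 2 was left out as well. Controls were at 46.2 ± 6.48 CPM at 1 h and 23.0 ± 8.88 at 6 h, a difference that was not tested, and animals at 4 mg/L were at 67.0 ± 15.3 CPM at 1 h, 70.7 ± 15.8 at 6 h (n = 2) and 61.7 ± 14.4 at 24 h (SD, n = 3 otherwise). Isoprenaline and mixture libraries at 6 h were at 57.4 to 68.2 and 49.3 to 68.4 CPM. The next 10 rising IDs had log2 changes of 0.55 to 1.47 at 6 h and of -0.23 to 0.93 at 24 h, where 2 of the 10 were called higher, beside 0.491% of all IDs.

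**Figure D4:**
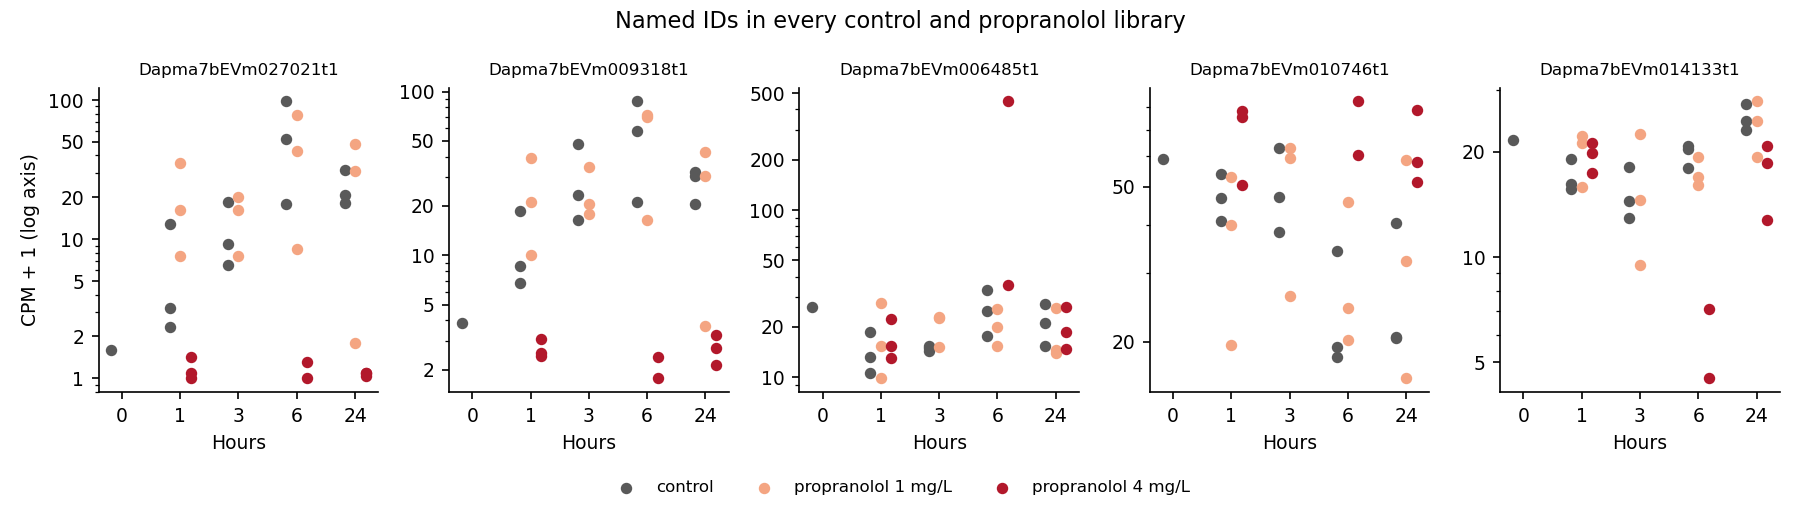
CPM + 1 (log axis) of 5 IDs in every control (grey), propranolol 1 mg/L (orange) and propranolol 4 mg/L (red) library by hour, where each point is a library. The first 2 IDs stay low under 4 mg/L at 1, 6 and 24 h, the third is high in 1 of the 2 exposed 6 h libraries, the fourth is higher in both, and the fifth is low under 4 mg/L at 6 h.

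The 6 h changes were then set against those of 4 mg/L at 24 and 1 h, which were measured in other exposed and control libraries. Of the 736 lower IDs, 716 (97.3%) were below control at 24 h and 678 (92.1%) at 1 h, against 51.5% and 50.3% of all IDs. Their median log2 difference was -0.64 at 24 h and -0.26 at 1 h, beside -0.015 and -0.0015 over all IDs. With the axis covariate these medians were -0.57 and -0.32. At 24 h, where 1.61% of all IDs were called and 1.12% were called lower, 134 of the 736 were called, which is 18.2% of the 6 h list and 62.6% of the 214 lower calls at 24 h. Of the 18 higher IDs, 15 were above control at 24 h and 17 at 1 h, with median log2 differences of 0.59 and 0.38, and 4 were called higher at 24 h (22.2% of the 18 and 4.26% of the 94 higher calls, beside 0.491% of all IDs). The 24 h calls varied with the fit, at 244 lower and 334 higher with edgeR, 91 and 50 with library weights and 712 and 402 with the axis covariate, and the shares of the lists were computed for the 214 and 94 calls only. At 1 h none of the 754 was called and limma called 2 IDs in all (0.0104%, 463 at an unadjusted p under 0.05), edgeR 1 (622), and limma with library weights 512 (410 lower and 102 higher).

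The 6 h effect was tested against the 24 h effect itself, and limma called 0 IDs (540 at an unadjusted p under 0.05), edgeR 0 (564) and DESeq2 6 (731). Against the 1 h effect, 1 ID passed with limma (0.00522%, 1166 unadjusted), 0 with edgeR (816 unadjusted) and 5 with DESeq2 (973 unadjusted), that ID among them. The median SE of these differences in limma was 0.419 on the log2 scale. The ID that limma called, Dapma7bEVm014133t1, is named after its values were seen. It was at 3.50 and 6.09 CPM in the exposed libraries at 6 h and at 17.0, 19.3 and 19.8 CPM in the controls, which do not overlap. At 4 mg/L it was at 18.5 ± 1.94 CPM at 1 h and 16.4 ± 4.13 at 24 h (SD, n = 3 each), and the 6 h libraries at 1 mg/L were at 15.1, 15.996 and 18.4 CPM. Mixture libraries at 6 h were at 9.15 to 14.3 CPM, also below all controls, and isoprenaline libraries at 17.6 to 18.9 CPM overlapped them. The 6 h change was -1.80 (SE 0.251, limma adjusted p 0.000408), and it exceeded the 1 h change by -1.997 (SE 0.337, limma adjusted p 0.0276, edgeR adjusted p 0.288, DESeq2 adjusted p 0.00415).

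Levels of the 736 lower IDs in every library set the 6 h values beside the other groups. The median over these IDs was 3.88 on the log2(CPM + 1) scale in the 0 h control library, 3.43 to 3.81 at 1 h, 3.69 to 4.02 at 3 h, 3.96 to 4.19 at 6 h and 3.86 to 4.17 at 24 h. At 4 mg/L it was 3.05 to 3.51 at 1 h, 2.28 and 3.12 at 6 h and 3.07 to 3.44 at 24 h. The 1 h ranges overlap and the 24 h ranges do not, and the 6 h values are those that chose the list. At 6 h the libraries at 1 mg/L were at 3.68 to 4.18, those of isoprenaline at 3.14 to 3.27 and those of the mixture at 2.99 to 3.30, so exposed replicate 2 lay within the range of the mixture and exposed replicate 1 below every other library of the series. The 18 higher IDs were at 5.84 and 5.53 in exposed replicates 1 and 2 and at 4.08 to 4.57 in the 6 h controls, the values that chose them. Other controls were at 4.81 (0 h), 4.73 to 5.11 (1 h), 4.89 to 5.04 (3 h) and 4.22 to 4.918 (24 h). Libraries at 4 mg/L were at 5.16 to 5.46 at 1 h and 4.923 to 5.26 at 24 h. At 6 h the levels were 4.26 to 5.11 with 1 mg/L, 5.18 to 5.40 with isoprenaline and 4.83 to 5.38 with the mixture.

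**Figure D5:**
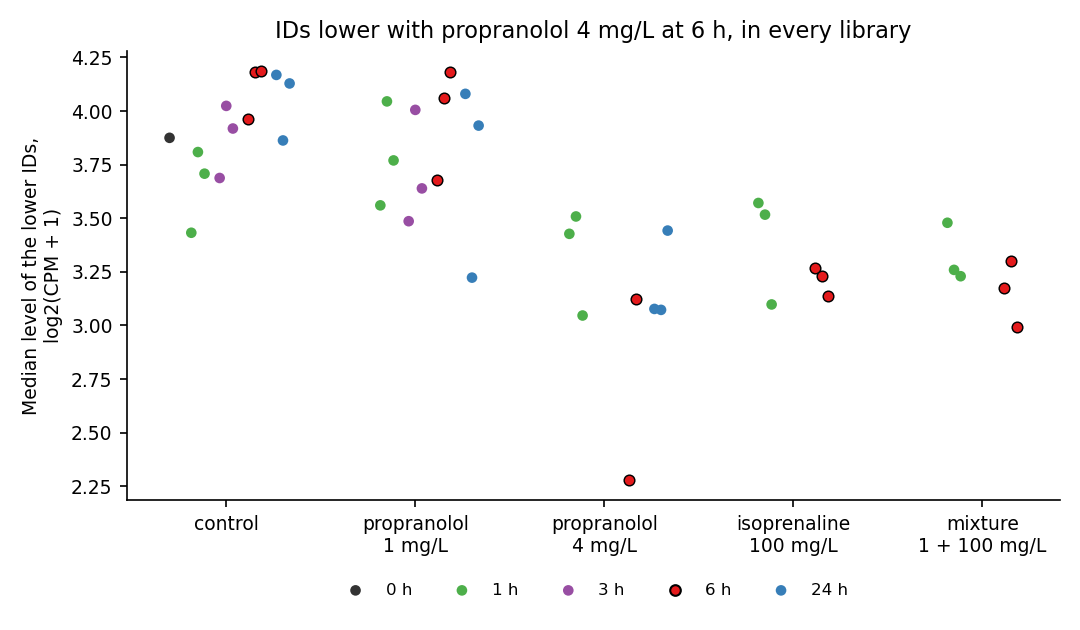
Median log2(CPM + 1) of the 736 lower IDs in each of the 45 libraries, by exposure and hour (colour, 6 h ringed), where each point is a library. Controls at 6 h lie between 3.96 and 4.19, and exposed replicate 1 at 4 mg/L lies lowest, at 2.28.

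The lower dose gave few or no calls at the same hour, depending on the fit. Against the same 3 controls, propranolol at 1 mg/L had 0 calls at 6 h with limma (623 IDs at an unadjusted p under 0.05) and 0 with edgeR (629). With library weights limma called 3 lower and 35 higher, without control replicate 3 it called 3 lower, and with only the 6 h groups it called 1 lower. The median log2 difference over the 736 lower IDs was -0.13, beside -1.16 at 4 mg/L. Over the 18 higher IDs these medians were 0.09 and 1.06. Both comparisons use the same controls, and the lists were chosen at 4 mg/L, so these values are given side by side with no test.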

How the data were processed

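Whole-body RNA was sequenced from a stranded mRNA kit with 500 ng of total RNA, per the labels' protocols. The deposited values are CPM, scaled by the authors to 1000000 reads per library. Tools named in the submitters' processing notes are Bowtie2 2.1.0, Trim Galore 0.3.2, edgeR and HTSeq. Genome build and annotation: not given in the sources used here. The values fell on whole multiples of what 1 read is worth, so reads were recovered for 100% of 862155 values (tolerance 0.01 read) and totals ran from 13.5 to 43.7 M per library. Reads of amplified libraries are not independent molecules, so intervals and the floor of 3 reads cover counting error only.

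Groups came from the titles. The test was limma 3.58.1 (trend and robust, R 4.3.3) on log2(CPM + 1), a scale that understates the change of low IDs, with the means of 16 groups and 29 residual degrees of freedom, since 2 libraries against 3 leave few of their own. Calls had a Benjamini-Hochberg adjusted p under 0.05 over 19159 IDs, all of which had at least 1 CPM in at least 3 libraries. Steps were tested on simulated counts drawn independently for each ID and library. These lack the axis that splits libraries within groups, so the simulation does not show how the test behaves under it. Alternatives were a pseudocount of 0.25, no filter, a mean of at least 5 CPM, fewer groups, the replicate number as a block, median log-ratio scaling, library weights, edgeR 4.0.16 and DESeq2 1.42.0 on recovered reads, and leaving out each library. The axis covariate was added after seeing the data: the first singular vector of the other 40 libraries' log2(CPM + 1), centred per ID, on which all 45 were scored.

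The IDs matched none of 28335 reference genes, so planned gene lists and markers were not used and no sequence is shown. Named IDs were, of those meeting the conditions in the text, the 2 largest log2 changes per direction. The comparison, lists and rules were chosen with earlier results of these data known.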

Additional observations from a re-analysis of the deposited data

Results flagged for a closer look

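Dapma7bEVm014133t1 had a lower 6 h effect than 1 h effect of propranolol 4 mg/L, by -1.997 on the log2 scale (SE 0.337, limma adjusted p 0.0276). At 6 h both exposed libraries were below all 3 controls, and at 1 h the exposed mean was 18.5 CPM against 15.999 CPM in the control (n = 3 each). With 1 library left out in turn the difference ran from -2.33 to -1.67 and missed the threshold in 8 of 11 fits (adjusted p up to 1.000). On the recovered reads edgeR gave an adjusted p of 0.288 and DESeq2 one of 0.00415. Groups of 2 and 3 libraries are too small to look for a single outlying sample by rule.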

How the results depend on the processing

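The 736 lower and 18 higher calls at 6 h depended on the spread assumed and on single libraries. Lower and higher calls numbered 0 and 0 when limma was fitted to the 2 compared groups alone (1451 IDs at an unadjusted p under 0.05), 255 and 1 with only the 6 h groups, 30 and 0 with library weights, 309 and 60 after shifting libraries by their median log ratio, 267 and 101 with edgeR over all groups, 553 and 198 with DESeq2, and 1140 and 91 with the axis covariate. With libraries left out in turn they ran from 2 to 1881 and from 0 to 57, and with the axis covariate as well from 65 to 1167 and from 10 to 84 (1136 and 69 without control replicate 2, 44 higher without control replicate 3, 50 higher without exposed replicate 2). The 2 libraries labelled replicate 1 deviated together from their group means (r = 0.716 with control), and so did those labelled replicate 2 (r = 0.545). With 2 exposed libraries their deviations mirror each other, so these r values are not independent. Exposed replicate 2 also went with control replicate 3 (r = 0.388). These pairs do not show that numbers pair libraries. With the replicate number as a block there were 801 lower and 26 higher calls over all groups, and 571 and 281 with only the compared groups. The latter fit leaves very few residual degrees of freedom, and control replicate 3 is alone in its block, so its counts are weakly founded. Differences between the 6 and 24 h effects numbered 0, but 6 with DESeq2, 3 with the axis covariate and 0 to 5 with libraries left out. Those between 6 and 1 h numbered 1, but 0 with only the compared groups (with or without the block), median log-ratio scaling or edgeR, 5 with DESeq2, 3 with the axis covariate and 0 to 41 with libraries left out. None of these differences can be had from the 6 h groups alone. With only the compared groups and no block, all 5 named IDs missed the threshold (limma adjusted p 0.609 to 0.676). With the block, only Dapma7bEVm006485t1 missed it (limma adjusted p 0.934). No alternative changed the direction of a named ID. The cause of these shifts was not tested. The median SE of a log2 change at 6 h was 0.312, and 3 reads stand for 0.142 to 0.188 CPM in these libraries.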
